A study of Mus musculus with 18 samples.

Results

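Guanylate-binding proteins (GBPs) and immunity-related GTPases (IRGs) were followed in mouse dendritic cells of KO and WT genotype, with and without lipopolysaccharide (LPS). The 9 genes were Gbp2 (gene ID 14469), Gbp3 (55932), Gbp4 (17472), Gbp5 (229898), Gbp7 (229900), Irgm1 (15944), Irgm2 (54396), Igtp (16145) and Tgtp1 (21822). They were taken by gene symbol from a table of 16614 genes. All 9 were in the table and passed the filter on low counts, which kept 11989 genes.

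RNA was sequenced from 18 samples of bone marrow-derived dendritic cells in 4 groups, namely KO with LPS (n = 5), WT with LPS (n = 5), KO control (n = 4) and WT control (n = 4). All groups shared the culture, with GM-CSF at 20 ng/ml, plus Flt3L at 100 ng/ml, for 7 to 10 days. In all of them cells were selected on XCR1, a receptor that marks type 1 conventional dendritic cells (cDC1), by sorting or with magnetic beads. Which way a given sample was selected, which gene was deleted, the age of the mice, and the dose and time of LPS are not in the labels. LPS is the bacterial outer membrane component sensed by Toll-like receptor 4. The labels do not say either whether replicates were separate cultures or animals, so p-values measure only the spread between these samples, which may be technical. The series title concerns the balance of the transcription factors STAT5 and STAT3.

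GBPs and IRGs are large families of interferon-inducible GTPases that act inside the infected cell. They gather on vacuoles that hold bacteria or parasites and on bacterial membranes, where they damage the vacuole or help caspase-11 sense LPS. IRGM proteins (in mice Irgm1, Irgm2 and Igtp, also called Irgm3) sit on host membranes and keep effector IRGs such as Tgtp1 (Irgb6) inactive there. Both families are classic targets of interferon-gamma and of type I interferons. Interferon-gamma acts mainly through promoter elements called GAS, and type I interferons mainly through elements called ISRE.

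The promoters show these elements as letters in the DNA. Promoters (250 bases before the start site to 50 bases after it) came from RefSeq, build GRCm38.p6, which held 9 promoters for 8 of the genes, Gbp3 having 2. Gbp4 was not matched. Both strands were searched for TTCNNNGAA (GAS) and GAAANNGAA (ISRE). ISRE letters were in 8 of the 9 promoters, all but the second of Gbp3. GAS letters were in 5, all of which also held ISRE letters, and the letters of the GAS and ISRE motifs overlapped each other in none of the 9. Of all 32851 RefSeq promoters of this length, 8.56% held the ISRE letters, 8.3% the GAS letters and 1.07% both. A match is a run of letters and not a measured binding site.

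The stretches below are shown because they place the GAS and ISRE letters (capitals) of the IRGs side by side. Each runs 5′ to 3′ along the gene's strand, with up to 15 bases on either side. Igtp lies at chr11:58199496-58199545 (plus strand), Irgm2 at chr11:58214887-58214936 (plus strand), Tgtp1 at chr11:48992300-48992349 (minus strand) and Irgm1 at chr11:48871421-48871465 (minus strand).
Igtp: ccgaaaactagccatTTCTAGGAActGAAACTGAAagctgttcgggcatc
Irgm2: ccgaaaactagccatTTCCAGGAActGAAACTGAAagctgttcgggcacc
Tgtp1: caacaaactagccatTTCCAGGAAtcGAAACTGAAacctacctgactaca
Irgm1: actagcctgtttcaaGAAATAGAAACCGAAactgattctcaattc

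In Igtp, Irgm2 and Tgtp1 the GAS letters stood 2 bases before the ISRE letters in the same reading direction. That arrangement was noticed after the sequences had been seen. It was in 8 of the 32851 promoters (0.0244%). Tgtp2 and Gm12185, further IRG genes, were among them, and so were Adar, Olfr382 and LOC115488470. The windows of Igtp, Irgm2 and Tgtp1 share letters beyond the motifs, so they may not be independent occurrences. The window of Irgm1 held overlapping ISRE letters and no GAS letters.

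The GBP promoters are shown because all 4 carry the ISRE letters on the other strand, so that the capitals show their reverse complement, and because of these 4 only Gbp5 and Gbp7 held GAS letters. They lie on the plus strand at chr3:142620590-142620628 (Gbp2), chr3:142559985-142560029 (Gbp3), chr3:142530215-142530307 (Gbp7) and chr3:142496684-142496905 (Gbp5).
Gbp2: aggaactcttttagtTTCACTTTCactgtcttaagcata
Gbp3: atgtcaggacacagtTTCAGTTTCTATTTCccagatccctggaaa
Gbp7: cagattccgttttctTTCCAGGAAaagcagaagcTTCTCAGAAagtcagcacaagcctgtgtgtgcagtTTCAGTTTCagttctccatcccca
Gbp5: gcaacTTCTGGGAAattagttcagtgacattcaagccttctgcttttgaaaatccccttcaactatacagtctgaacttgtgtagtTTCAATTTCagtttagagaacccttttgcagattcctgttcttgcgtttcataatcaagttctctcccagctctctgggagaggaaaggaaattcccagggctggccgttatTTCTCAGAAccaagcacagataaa

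In the same annotation Gbp5, Gbp7, Gbp3, Gbp2b and Gbp2 are neighbours, Gm12250, Igtp and Irgm2 are neighbours, and 9930111J21Rik2 lies between Tgtp1 and Tgtp2. Near-identical genes can share reads, and how such reads were divided is not stated in the labels. The estimated count of Tgtp1 was not a whole number in 18 of 18 libraries, that of Igtp and of Irgm2 in 11 each, and that of Gbp4 in 4. The values of these genes are less certain than those of Gbp2, Gbp3, Gbp5, Gbp7 and Irgm1, whose counts were whole in every library at a tolerance of 0.001.

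Libraries held 25590104 to 27375189 estimated counts. All 13 cDC1 markers were detected, with summed levels of 1925 to 2424 TPM (transcript abundance per length, relative to library size) in KO with LPS, 2202 to 2951 in WT with LPS, 4951 to 5530 in KO control and 5249 to 5648 in WT control. Neutrophil markers (8 genes) summed to 531.3 TPM in WT LPS replicate 5 and 250.5 TPM in WT control replicate 4. They lay at 0.8 to 15.44 TPM in the other 16 libraries. KO LPS replicate 5 (13.28 TPM) and KO control replicate 4 (15.44 TPM), whose library numbers run on from those of the WT libraries just named, had the highest sums of their groups. Monocyte and macrophage markers (10 genes) summed to 1586 to 2540 TPM in KO with LPS, 2088 to 2191 in WT with LPS, 3666 to 4023 in KO control and 3923 to 4019 in WT control. Xcr1 itself, on which cells were selected, fell in KO, with a log2 fold change of -0.61 ± 0.06 with LPS (edgeR adjusted p = 1.4e-06) and -0.68 ± 0.07 in control (1.3e-05). Among the 13 genes of the cDC1 list, KO with LPS had 2 called higher and 5 called lower, and KO control had 1 called higher and 1 called lower. Over all genes tested, 10.8% were called with LPS and 2.41% in control, in either direction. Of the 5 called lower with LPS, only Xcr1 and Naaa are named here. Cadm1 (0.46 ± 0.06, adjusted p = 8.3e-05) and Cd24a (0.21 ± 0.06, 0.023) rose in KO with LPS, while Naaa fell (-0.94 ± 0.08, 1.2e-07). In control Cd24a rose in KO (0.29 ± 0.06, 0.016). These genes were picked after their values had been seen, and the part of the markers in the results was not tested. WT LPS replicate 2 was the highest of its group in each of the 9 genes, although Dixon's test did not single it out for any of them or for their mean. Results that rest on it are given with and without it. Bulk RNA cannot tell a change in the number of cells of a type from a change in RNA per cell.

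With LPS, Irgm1 of the 9 genes had the highest median in both genotypes, at 590.6 TPM in KO (555.53 to 618.81) and 486.5 TPM in WT (456.83 to 617.23). Tgtp1 followed with a median of 452 TPM in KO (398.78 to 470.28) and 323.8 TPM in WT (312.96 to 562.79). Gbp5, which promotes inflammasome assembly, and Gbp2, a GBP that coats pathogen vacuoles and bacteria, came next and overlapped each other in both genotypes. Their medians were 271.6 and 236.1 TPM in KO, and 213.3 and 170.8 TPM in WT. Igtp (142 TPM in KO, 123.1 in WT), Irgm2 (92.64 and 78.13) and Gbp3 (51.68 and 39.97) followed in both genotypes.

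Gbp4 and Gbp7 were the lowest with LPS. Gbp4 had a median of 9.52 TPM in KO and 6.48 TPM in WT, and Gbp7 had 3.91 TPM in KO and 3.97 TPM in WT. In KO with LPS, Gbp5 and Gbp2 were the neighbours in this order whose libraries overlapped. In WT with LPS, libraries overlapped between most neighbours, and the exceptions were Igtp above Irgm2 and Gbp3 above Gbp4.

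Without LPS the order was different. Irgm1 was again highest, with a median of 39.95 TPM in KO control (37.65 to 42.53) and 35.56 TPM in WT control (32.46 to 37.31). Gbp2 (11.62 TPM in KO, 7.98 in WT), Igtp (7.825 and 7.68) and Irgm2 (6.335 and 6.435) followed. Tgtp1 had the second highest level with LPS, yet its median was 1.36 TPM in KO control and 0.58 TPM in WT control. Gbp7 had 0.105 TPM in KO control and 0.075 TPM in WT control. Summed over the 9 genes, the level was 1644 to 1936 TPM in KO with LPS, 1381 to 2315 TPM in WT with LPS, 69.36 to 75.74 TPM in KO control and 58.1 to 73.36 TPM in WT control.

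**Figure D1:**
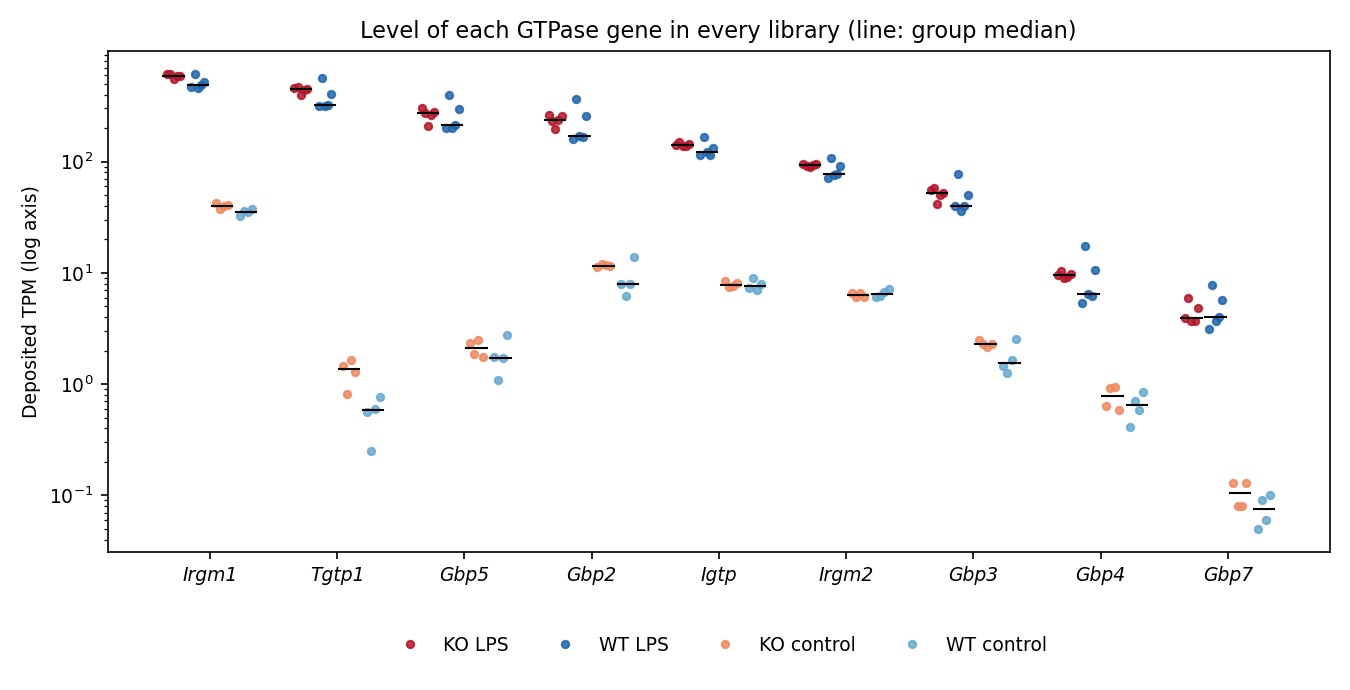
Deposited TPM of each gene in every library on a log axis, with genes in order of their median in KO with LPS, dots for libraries and lines for group medians. LPS libraries lie above control libraries for each gene, from 555.53 to 618.81 TPM for Irgm1 in KO with LPS down to 0.05 to 0.1 TPM for Gbp7 in WT control, and WT LPS replicate 2 is the highest WT LPS dot of every gene.

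All 9 genes rose with LPS in both genotypes. In KO cells the log2 fold change lay between 4.28 (Gbp4) and 9.07 (Tgtp1), with a median of 5.00, and in WT cells between 4.44 (Irgm2) and 10.22 (Tgtp1), with a median of 5.38. All 9 passed the test with higher values (edgeR quasi-likelihood test, adjusted p under 0.05), against 40% of the genes tested in KO and 40.7% in WT. The median over all genes tested was -0.10 in KO and -0.06 in WT. For each of the 9, every LPS library lay above every control library of its genotype. The share of all genes tested with such a gap was not counted, so this only describes the 9.

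Tgtp1 had 1002, 981.2, 824.5, 939 and 935.9 CPM in KO with LPS, against 1.887, 1.096, 2.16 and 1.79 CPM in KO control. In WT it had 661.5, 1238, 608.4, 632.6 and 817.2 CPM with LPS, against 0.708, 0.3023, 0.6943 and 0.9366 CPM in control. CPM are counts relative to library size, scaled between libraries by TMM and not by gene length. The fold change of Tgtp1 was 9.07 ± 0.27 on the log2 scale in KO (edgeR adjusted p = 5.7e-17) and 10.22 ± 0.29 in WT (4.3e-17), given with its standard error (SE). The control libraries held 11.32 to 76.95 estimated counts of Tgtp1, so the base of these folds rests on few reads.

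Gbp5 had 721.7, 614.2, 470.7, 604.1 and 621.5 CPM in KO with LPS, against 3.352, 2.698, 3.563 and 2.699 CPM in KO control. In WT it had 464, 947.1, 415.3, 451.7 and 643.3 CPM with LPS, against 2.396, 1.484, 2.166 and 3.609 CPM in control. Its log2 fold change was 7.62 ± 0.29 in KO (edgeR adjusted p = 3.2e-15) and 7.92 ± 0.30 in WT (2.8e-15). Gbp7, a GBP with a part in the oxidative burst of mouse macrophages, rose by 6.01 ± 0.35 in KO and 6.73 ± 0.38 in WT on the same scale, with 8 to 14 counts in KO control libraries and 5 to 9 in WT control libraries.

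The IRGM genes rose by 4.52 to 4.82 in KO and by 4.44 to 4.79 in WT on the log2 scale. Irgm1 had 1014, 987, 878.1, 949.7 and 933.4 CPM in KO with LPS, against 42.79, 38.08, 39.58 and 42.99 CPM in KO control. In WT it had 760.2, 1040, 671.6, 726.2 and 797.9 CPM with LPS, against 31.59, 34.27, 31.41 and 34.21 CPM in control. Its fold was 23.3 in KO (95% interval 19.9 to 27.3) and 24.3 in WT (20.7 to 28.5). Irgm2 had a fold of 23 in KO and 21.7 in WT, and Igtp 28.3 in KO and 27.7 in WT. Gbp2 had a fold of 32.1 in KO and 41.7 in WT, Gbp3 of 34.8 in KO and 47.7 in WT, and Gbp4 of 19.4 in KO and 24.2 in WT. Scaling by total count, without TMM, shifted the median over all genes by -0.78 in KO and by -0.74 in WT on the log2 scale, and all 9 calls held there. Of all genes called, 46.4% in KO and 47.7% in WT were higher with LPS under TMM, against 22.3% in KO and 22.1% in WT under total-count scaling.

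With WT LPS replicate 2 left out, all 9 calls in WT held. The log2 fold changes in WT were then 4.18 (Gbp4) to 10 (Tgtp1), with a median of 5.09.

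**Figure D2:**
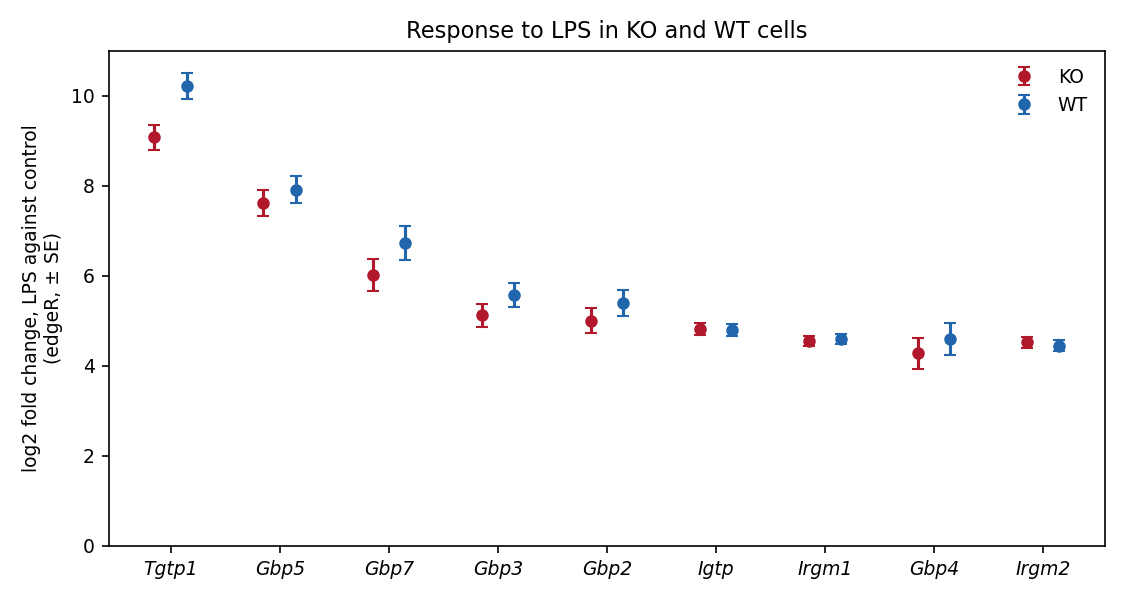
Log2 fold change of LPS against control in KO and WT cells for each gene (edgeR, points with SE bars), ordered by the value in WT. Tgtp1 leads with 9.07 in KO and 10.22 in WT, and the points of Irgm1, Igtp and Irgm2 lie between 4.44 and 4.82 in both genotypes.

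With LPS, none of the 9 genes passed the test between KO and WT, against 10.8% of the genes tested that did. The log2 fold change of KO against WT lay between -0.09 (Gbp7) and 0.25 (Irgm1) and was positive for 8 of the 9, with a median of 0.12. The median over all genes tested was -0.02. At an unadjusted p under 0.05, Irgm1 alone of the 9 passed, where 3147 of the 11989 genes tested did. Irgm1 averaged 952.5 ± 52.3 CPM in KO and 799.1 ± 142 CPM in WT (SD, n = 5 each), a log2 fold change of 0.25 ± 0.09 (edgeR adjusted p = 0.062). DESeq2 called Irgm1 (adjusted p = 0.03), and so did limma-voom (adjusted p = 0.042). These were among 5 of 27 alternatives that called it. Total-count scaling and DESeq2 size factors in edgeR did not. Its log2 fold change over the alternatives lay between 0.18 and 0.37. Over all genes, DESeq2 called 1711 and limma-voom 1212.

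The 95% intervals of the fold change show which sizes of difference the data allow. That of Irgm1 ran from 1.05 to 1.35, and that of Tgtp1 from 0.94 to 1.49 around a log2 fold change of 0.24 ± 0.16 (edgeR adjusted p = 0.35). Igtp (0.971 to 1.3) and Irgm2 (0.979 to 1.28) had narrow intervals. Those of Gbp2 (0.797 to 1.47), Gbp3 (0.835 to 1.41), Gbp4 (0.737 to 1.52), Gbp5 (0.791 to 1.36) and Gbp7 (0.7 to 1.26) were wider. Of the 9 intervals, that of Irgm1 alone did not take in 1.

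WT LPS replicate 2 set much of this spread. It lay above the mean of its group for all 9 genes, by 0.73 on average on the log2 CPM scale, and was the highest WT LPS library for each. For Gbp4 it had 63.18 CPM, where KO with LPS had 34.25, 35.81, 30.43, 31.93 and 33.22 CPM and the other WT LPS libraries had 18.5, 20.55, 19.85 and 35.3 CPM. For Gbp2 it had 686.2 CPM, where KO with LPS had 495, 414.6, 351, 431.4 and 456.9 CPM and the other WT LPS libraries had 289.5, 282.8, 281.7 and 442.3 CPM. WT LPS replicate 5, the library with high neutrophil markers, was also above the group mean for all 9 genes (0.16 on average), and WT LPS replicates 1, 3 and 4 were below it for all 9 (by 0.27, 0.34 and 0.28). The part of these markers in the result was not tested. In WT LPS replicate 2 neutrophil markers summed to 7.56 TPM, within the range of the KO LPS libraries (2.35 to 13.28 TPM). Its cDC2 markers (8 genes) summed to 62 TPM, above KO with LPS (35.9 to 46.25 TPM) and above the other WT LPS libraries, of which replicate 5 came next with 54.7 TPM. These markers did not go 1 way, and 4 of the 8 were under 1 TPM in all LPS libraries. Itgam reached 30.8 TPM in WT with LPS and 16.29 TPM in KO with LPS. Sirpa, Irf4 and Clec4a4 reached higher values in KO with LPS (17.14, 15.67 and 2.74 TPM) than in WT (15.78, 13.36 and 2.03). In WT LPS replicate 2 plasmacytoid dendritic cell markers (6 genes) summed to 39.68 TPM, against 32.21 to 38.1 TPM in KO with LPS, and cDC1 markers to 2202 TPM, the lowest sum in WT with LPS. The part of these lists in the result was not tested either.

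The KO LPS libraries were closer together. The coefficient of variation of CPM in KO with LPS was between 3.55% (Igtp) and 21.5% (Gbp7), against 17.8% (Irgm1) to 60.3% (Gbp4) in WT with LPS. Without WT LPS replicate 2 the WT values lay between 7.25% (Irgm1) and 33.5% (Gbp4). The factor by which TMM scaled the library was 0.7453 in WT LPS replicate 2, 0.7433 to 0.7911 in KO with LPS and 0.8073 to 0.8497 in the other WT LPS libraries.

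**Figure D3:**
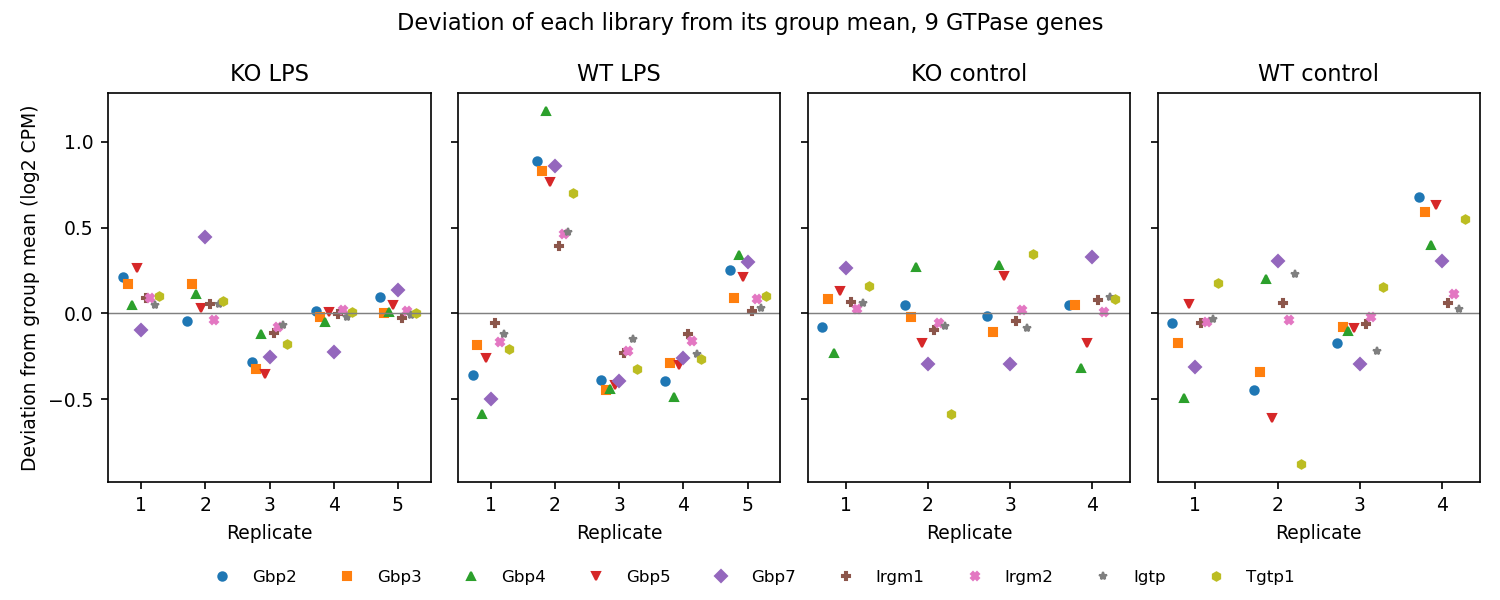
Deviation of each library from its group mean (log2 CPM) for each of the 9 genes, by group and replicate. WT LPS replicate 2 stands above the line for all 9 genes, by 0.73 on average, WT control replicate 4 by 0.37 on average, and the KO LPS libraries stay between -0.35 and 0.44.

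Each of the 18 libraries was left out in turn. Leaving out WT LPS replicate 2 gave calls for 6 of the 9 genes between KO and WT with LPS, and leaving out any of the other 17 gave 0. The 6 were all higher in KO, against 13.8% of the genes tested that were called higher and 27.9% called in either direction. That library is the one highest in these genes, so leaving it out favours higher values in KO, and the p-values that follow are a description and no independent support. The log2 fold change was 0.37 ± 0.06 for Irgm1 (edgeR adjusted p = 8e-05), 0.30 ± 0.06 for Irgm2 (0.00045) and 0.31 ± 0.06 for Igtp (0.00092). It was 0.46 ± 0.10 for Tgtp1 (0.0017), 0.39 ± 0.11 for Gbp3 (0.013) and 0.49 ± 0.15 for Gbp4 (0.016). Gbp2 (0.41 ± 0.15, adjusted p = 0.05 when rounded and above the threshold), Gbp5 (0.30 ± 0.13, 0.1) and Gbp7 (0.19 ± 0.15, 0.38) did not pass. Without it, the KO LPS libraries lay above all 4 remaining WT libraries for 4 of the 9 genes, Irgm1, Irgm2, Igtp and Tgtp1, against 9.8% of the genes tested. With WT LPS replicate 2 included, no gene of the 9 had every KO LPS library above every WT LPS library. The share of all genes tested for that was not counted.

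The values of the genes called without that library show its place. Irgm2 had 264.6, 242.1, 236, 252.3 and 251.4 CPM in KO with LPS, against 194.8, 301.4, 188, 195.4 and 232.3 CPM in WT with LPS. Igtp had 213.7, 214, 196.9, 202.9 and 204.6 CPM in KO with LPS, against 166.5, 251.6, 162.9, 153.4 and 184.5 CPM in WT with LPS. In both, replicate 2 was the WT library above all KO values and the other 4 were below them. Gbp3 had 118.2, 118.3, 83.64, 103.3 and 104.8 CPM in KO with LPS, against 81.07, 164.3, 67.77, 75.48 and 98.43 CPM in WT with LPS, so that KO overlapped WT also through replicate 5.

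Library numbers in the labels run on in sets, within which KO could be set against WT. Of these sets, 4 hold 1 library of each group, and the set with WT LPS replicate 2 holds only that library and KO LPS replicate 2, with no control. The mean over the 9 genes with LPS was higher in KO by 0.56, 0.32 and 0.44 on the log2 CPM scale in 3 sets, with all 9 genes higher in KO in each. In the set that holds WT LPS replicate 2 the difference of KO from WT was -0.45, with 0 of 9 higher in KO, and in the set that holds WT LPS replicate 5 it was 0.06, with 6 of 9 higher in KO. In control, the mean was higher in KO by 0.64, 0.54 and 0.62 in 3 sets and by 0.13 in the set of WT control replicate 4. The labels do not say that such a set is a batch. The same differences were not taken over all genes, and the 9 varied together, so the counts by set are a description.

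Without LPS, none of the 9 genes passed the test between KO and WT, against 2.41% of the genes tested that did. All 9 had a positive log2 fold change, from 0.09 (Irgm2) to 1.39 (Tgtp1), with a median of 0.39. The median over all genes tested was 0.02. Tgtp1 and Irgm1 were higher in every KO control library than in every WT control library, which was so for 9.22% of the genes tested. At an unadjusted p under 0.05, these 2 of the 9 passed, where 1665 of the 11989 genes tested did. DESeq2 called 1 of the 9 and limma-voom 0, against 494 and 413 genes over all.

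Tgtp1, the effector IRG, had 1.887, 1.096, 2.16 and 1.79 CPM in KO control, against 0.708, 0.3023, 0.6943 and 0.9366 CPM in WT control. The log2 fold change was 1.39 ± 0.37 (edgeR adjusted p = 0.055), with a 95% interval of the fold from 1.52 to 4.5. DESeq2 called it (adjusted p = 0.00059), as did 9 of 27 alternatives in all. Irgm1 had 42.79, 38.08, 39.58 and 42.99 CPM in KO control, against 31.59, 34.27, 31.41 and 34.21 CPM in WT control. Its log2 fold change was 0.31 ± 0.10 (edgeR adjusted p = 0.12), and 4 of 27 alternatives called it. Leaving out WT LPS replicate 2, which also enters the estimate of spread, called Tgtp1 (adjusted p = 0.002) and Irgm1 (0.0034) in control. Tgtp1 was called too without KO control replicate 2 (0.045) or WT LPS replicate 3 (0.047).

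For the other 7 genes KO and WT control overlapped. Gbp2 had 12.65, 13.85, 13.24 and 13.85 CPM in KO control, against 8.714, 6.624, 8.054 and 14.57 CPM in WT control (log2 fold change 0.50 ± 0.27, edgeR adjusted p = 0.45). Gbp3 had 3.211, 2.979, 2.805 and 3.14 CPM in KO control, against 1.743, 1.539, 1.861 and 3.003 CPM in WT control (0.57 ± 0.31, adjusted p = 0.45). In both, WT control replicate 4 was the WT library that met the KO values. It was above its group mean for all 9 genes, by 0.37 on average (log2 CPM), and it is the control library with high neutrophil markers, whose part was not tested. Gbp4 (0.39 ± 0.45), Gbp5 (0.35 ± 0.32), Gbp7 (0.63 ± 0.72), Igtp (0.14 ± 0.14) and Irgm2 (0.09 ± 0.12) had adjusted p values of 0.71 to 0.84.

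**Figure D4:**
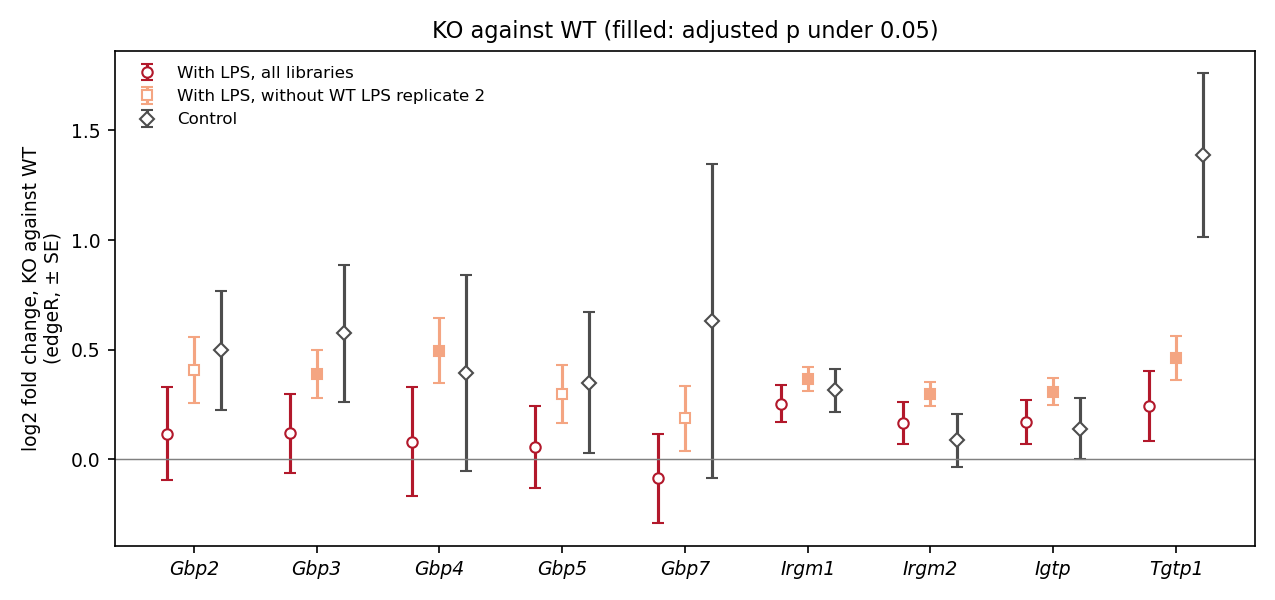
Log2 fold change of KO against WT for each gene (edgeR, points with SE bars) with LPS over all libraries, with LPS without WT LPS replicate 2, and in control, filled where the adjusted p is under 0.05. With all libraries no point is filled, and without WT LPS replicate 2 the points of Gbp3, Gbp4, Irgm1, Irgm2, Igtp and Tgtp1 are filled, at 0.30 to 0.49.

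The interaction compares the LPS response of KO with that of WT. None of the 9 genes passed it, against 3.82% of the genes tested that did. Its log2 value lay between -1.14 (Tgtp1) and 0.08 (Irgm2), with a median of -0.31, against -0.05 over all genes tested. Tgtp1 had -1.14 ± 0.41 (edgeR adjusted p = 0.13), with a 95% interval from -2 to -0.29. It was the gene of the 9 with an unadjusted p under 0.05, where 2233 of the 11989 genes tested passed. DESeq2 called it (adjusted p = 0.045) among 813 genes over all, while limma-voom called 0 of the 9 and 474 genes over all. The value of Tgtp1 was -0.93 without WT LPS replicate 2, and it was called there (edgeR adjusted p = 0.037), as were 12.5% of the genes tested.

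Of 5 further GBP genes tested, all rose with LPS in both genotypes, with median log2 fold changes of 3.99 in KO and 4.47 in WT. Over all genes tested, 40% rose in KO and 40.7% in WT. None of the 5 was called between genotypes, where 10.8% of all genes tested were with LPS and 2.41% in control. Gbp9 had the highest level of them, at 26.7 ± 1.76 TPM in KO with LPS and 26.2 ± 8.23 TPM in WT with LPS. Gbp6 had 7.58 ± 1.86 TPM in KO with LPS and 6.97 ± 2.49 TPM in WT with LPS.

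Of 11 further IRG genes tested, 10 rose with LPS in both genotypes, where 40% of all genes tested rose in KO and 40.7% in WT. Of the 11, 1 fell, where 46.2% of all genes tested fell in KO and 44.7% in WT. The exception was Irgq, at -1.38 ± 0.12 in KO and -1.31 ± 0.11 in WT (log2 fold change). In control cells, 2 of the 11 rose in KO and none fell, where 2.41% of all genes tested were called. Tgtp2, a near-identical copy of Tgtp1, had 10.87, 8.767, 11.14 and 11.4 CPM in KO control, against 5.337, 5.882, 5.416 and 6.556 CPM in WT control (0.86 ± 0.12, edgeR adjusted p = 0.00049). Because near-identical genes can share reads, the values of Tgtp2 and Tgtp1 may not be separate measurements. Ifi47, the effector Irgd, had 4.479, 4.44, 4.657 and 4.958 CPM in KO control, against 2.424, 2.364, 2.972 and 3.443 CPM in WT control (0.73 ± 0.15, adjusted p = 0.01). KO and WT control did not overlap for Tgtp2 or Ifi47.

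With LPS neither was called between genotypes. Ifi47 had 891.3, 863, 838.4, 874.3 and 856.2 CPM in KO, against 653.4, 983, 672.6, 651.5 and 768.2 CPM in WT (0.21 ± 0.09, edgeR adjusted p = 0.15). Tgtp2 had 690.8, 692, 669.3, 696 and 685.8 CPM in KO, against 513.9, 748.3, 511.1, 518 and 578.8 CPM in WT (0.26 ± 0.09, adjusted p = 0.069). WT LPS replicate 2 was the library above the KO values in both genes. Tgtp2 passed the interaction with -0.60 ± 0.15 (adjusted p = 0.03), a call that 15 of 26 alternatives kept. Without WT LPS replicate 2, 9 of the 11 IRG genes and 3 of the 5 GBP genes were called higher in KO with LPS, where 13.8% of all genes tested were, and 1 IRG gene was called lower, with 27.9% of all genes called in either direction. In control, 1 of the 5 GBP genes was then called, as higher in KO, where 6.28% of all genes tested were called.

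Among 3 further interferon-induced large GTPases tested, all rose with LPS in both genotypes, where 40% of all genes tested rose in KO and 40.7% in WT. In control 1 of the 3 was called between genotypes, where 2.41% of all genes tested were. Gvin2 rose in KO control, with 40.65, 28.07, 32.18 and 27.62 CPM in KO control and 21.73, 23.42, 24.52 and 25.12 CPM in WT control (0.44 ± 0.12, edgeR adjusted p = 0.049). The groups did not overlap, but 18 of 27 alternatives lost the call, total-count scaling (0.064) and limma-voom (0.059) among them, and the value was 0.31 without KO control replicate 1 (0.18). Gvin1, the most expressed of the 3 per length, had 266.3 ± 18.1 TPM in KO with LPS and 237 ± 30.1 TPM in WT with LPS. None of the 3 was called between genotypes with LPS, where 10.8% of all genes tested were. All 3 were called higher in KO without WT LPS replicate 2, where 13.8% of all genes tested were. With KO LPS replicate 2 left out as well, 1 of the 3 was called higher, and 3238 genes were called over all.

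Of 17 interferon signalling genes tested, 2 rose in KO with LPS, 3 rose in KO control, and none fell in either. Over all genes tested, 10.8% were called with LPS, a share near that of the list, and 2.41% in control. Total-count scaling left 1 of the 2 calls with LPS. Nlrc5, the transactivator of MHC class I genes, rose in KO with LPS, at 1359, 1262, 1184, 1228 and 1302 CPM against 832.2, 1167, 937.9, 965.5 and 1044 CPM in WT with LPS (0.36 ± 0.09, edgeR adjusted p = 0.017), and the groups did not overlap. It lost the call without KO LPS replicate 1 (0.054) or WT LPS replicate 1 (0.052). In control, Irf9, a DNA-binding factor of type I interferon signalling, rose in KO (0.28 ± 0.05, adjusted p = 0.006), and so did Usp18, which limits type I interferon signalling (0.79 ± 0.16, adjusted p = 0.0079). KO and WT control did not overlap for Irf9 or Usp18. Irf8, the most expressed gene of the list per length and a cDC1 factor, had 734 ± 85.1 TPM in KO with LPS and 669 ± 110 TPM in WT with LPS, and was not called between genotypes (edgeR adjusted p = 0.098). Leaving out WT LPS replicate 2, 8 of the 17 were called higher in KO with LPS, beside 13.8% of all genes tested, and 1 was called lower.

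Transcripts of Ifng and Ifnb1, which encode interferons, were low. Ifng had at most 0.13 TPM in KO with LPS and 0.06 TPM in WT with LPS, and was listed at 0 in all control libraries. Ifnb1 had 2.74, 1.86, 1.14, 1.74 and 1.79 TPM in KO with LPS, against 0.91, 4.94, 1.77, 0.85 and 1.24 TPM in WT with LPS, and was listed at 0 in all control libraries. WT LPS replicate 2 had the highest Ifnb1 value of all libraries. These values were picked after they had been seen.

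Of 9 non-canonical inflammasome genes tested, which include the targets of GBP action on LPS, 2 rose and 1 fell in KO with LPS, where 10.8% of all genes tested were called. Pycard, the adaptor ASC, had 21.76, 23.05, 17.98, 19.75 and 21.14 CPM in KO with LPS, against 34.8, 49.49, 31.82, 33.58 and 37.1 CPM in WT with LPS (-0.85 ± 0.10, edgeR adjusted p = 1.1e-05). KO and WT with LPS did not overlap for Pycard, and its interaction value was -0.96 ± 0.14 (adjusted p = 0.00055). Aim2, a sensor of cytosolic DNA, rose in KO with LPS (0.18 ± 0.05, adjusted p = 0.018), and so did Il18, a cytokine cut by caspase-1 (0.33 ± 0.09, adjusted p = 0.028). Pycard kept both calls in every alternative run, whereas 4 of 27 alternatives lost the call of Aim2, which had 0.10 under total-count scaling (adjusted p = 0.23), and 8 of 27 that of Il18 with LPS. In control, Il18 alone of that list rose in KO (0.58 ± 0.11, adjusted p = 0.008), where 2.41% of all genes tested were called. When WT LPS replicate 2 was left out, 4 were called higher and 1 lower in KO with LPS, and 2 higher in control. Over all genes tested, 27.9% were then called with LPS and 6.28% in control, in either direction.

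Il1b was the most expressed gene of that list per length, at 1125 ± 145 TPM in KO with LPS and 1455 ± 564 TPM in WT with LPS, with no call between genotypes (edgeR adjusted p = 0.38). Gsdmd, the pore-forming gasdermin D, had 136 ± 5.36 TPM in KO with LPS and 124 ± 24.7 TPM in WT with LPS (adjusted p = 0.3). Casp4, which encodes caspase-11 in mice, had 96.2 CPM in KO with LPS against 0.301 CPM in KO control, and 110.8 CPM in WT with LPS against 0.1995 CPM in WT control (group means). It was picked after its values had been seen, and its log2 rise with LPS was 8.30 ± 0.23 in KO and 9.09 ± 0.24 in WT.

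Of 15 genes of LC3 conjugation and vacuole targeting, which in mice bring GBPs and IRGs to vacuoles, 1 rose and 1 fell in KO with LPS and none was called in control. The share with LPS was near the 10.8% of all genes tested. Sqstm1, an autophagy receptor, rose, with 3422, 2767, 2256, 2956 and 2878 CPM in KO with LPS and 2421, 2501, 1643, 1983 and 2214 CPM in WT with LPS (0.41 ± 0.10, edgeR adjusted p = 0.012). Tax1bp1, another such receptor, fell (-0.16 ± 0.05, adjusted p = 0.037), a call that 8 of 27 alternatives lost. That of Sqstm1 was lost in 1 of 27, with only the groups compared (0.086). Gabarap, an LC3-like protein and the second most expressed gene of the list per length, had 514 ± 11.2 TPM in KO with LPS and 488 ± 20.2 TPM in WT with LPS. With WT LPS replicate 2 left out, 5 of the 15 were called higher and 2 lower in KO with LPS. Over all genes tested, 13.8% were then called higher and 27.9% in either direction.

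The 9 genes also varied together within groups. After the group means were removed, the 36 pairs of genes had Pearson correlations from 0.284 (Igtp with Tgtp1) to 0.95 (Gbp2 with Gbp3) over 18 libraries, with a median of 0.748. Without WT LPS replicate 2 they lay between -0.212 and 0.905, with a median of 0.527. These libraries share depth and scaling, so the values are a description. The genes outside the 9 whose deviations were most like the mean of the 9 were Sema7a (r = 0.977), Gnb4 (0.967), Ccl5 (0.966), Mmp13 (0.961) and Fscn1 (0.958), and at 17 libraries without WT LPS replicate 2 their values were 0.93, 0.904, 0.914, 0.882 and 0.873. On log2 CPM over all 18 libraries, where the LPS response dominates, Mov10, Ifi209, Ifit1, Tmem106a and Samhd1 were most alike, with r of at least 0.999.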

How the data were processed

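RNA of 18 samples was read as paired ends on the DNBSEQ platform, per the labels' protocols. HISAT and Bowtie2 were used with build GRCm39, per the submitters' processing notes. For their versions, the annotation and the counting program nothing is stated (not given in the sources used here). What the authors deposited includes 1 estimated count per gene and sample, without normalization. The authors also deposited TPM values, scaled by length. FPKM values, which the authors deposited beside them, per the file headers, were not used. Of the gene IDs, 16495 of 16614 matched a RefSeq table of GRCm38.p6, used for names, neighbours and promoters.

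Counts were rounded and tested with edgeR 4.0.16 (R 4.3.3): filterByExpr (minimum count 10, total 15), TMM, a quasi-likelihood model of 4 group means over all libraries, 5 contrasts, and Benjamini-Hochberg adjustment over all 11989 genes. Log2 CPM used a prior count of 2. DESeq2 1.42.0 and limma 3.58.1 (voom) served as alternatives, beside total-count scaling, DESeq2 size factors, no filter, only the groups compared, leaving out libraries, and blocks. On simulated data for KO against WT with LPS (11604 genes in the fit), it called 64 of 67 genes changed 1.5-fold. It called 67 of 67 changed 2-fold, 66 of 66 changed 4-fold and 12 of 11404 unchanged genes. These shares hold for the spread that was simulated and do not give the chance of a call for the followed GBP and IRG genes. Their coefficient of variation in WT with LPS was 17.8% (Irgm1) to 60.3% (Gbp4). The common biological coefficient of variation over all genes was 0.0934. Depth of 25590104 to 27375189 estimated counts limits precision for control values of Gbp7 and Tgtp1.

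The 9 genes and the lists were chosen with earlier results of these data known. Beyond the 9, the text names of each pathway list the genes called in a genotype contrast or interaction (up to 4 with the smallest p), the 2 with the highest mean TPM, and the 5 genes most alike by each measure; others are named as picked. A gene of the interferon signalling list that the rule names is not reported here.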

Additional observations from a re-analysis of the deposited data

Results flagged for a closer look

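The mean of the 9 genes on the log2 CPM scale was 1.99 in WT control replicate 4, where the nearest other WT control library was at 1.52, so that this library stood far from the others of its group. The gap was 0.869 of the range of the group. It was the 1 of 40 such checks (9 genes and their mean in 4 groups) that passed, and chance gives about 1 in 20. Neutrophil markers summed to 250.5 TPM in this library, and their part was not tested.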

How the results depend on the processing

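The 9 calls with LPS held in both genotypes in all 27 alternatives. With LPS, KO against WT gave 1 call among the 9 genes under DESeq2, limma-voom and the replicate block by run of library numbers, and 6 without the libraries numbered 5 and 7. Leaving out 1 library gave 0 to 6, with 6 without WT LPS replicate 2. Of the calls over all genes 49.1% were higher in KO, and 23% under total-count scaling. Over all genes the 1294 calls became 619 with only the groups compared, 3238 without libraries 5 and 7, and 805 to 3344 without 1 library. In control the count among the 9 genes was 1 with total-count scaling, DESeq2 or no filter, 2 with only the groups compared, without libraries 5 and 7 or with the run block, and 0 to 2 without 1 library. Over all genes the 289 calls in control became 494 (DESeq2), 895 (only the groups compared), 822 (without libraries 5 and 7), 614 (run block) and 114 to 751 (without 1 library). In the interaction, Tgtp1 was called by DESeq2, without libraries 5 and 7 and with the run block, which is 1 call each, and the count was 0 to 1 without 1 library. Over all genes the 458 interaction calls became 813, 1591 and 882 in that order, and 208 to 1501 without 1 library. The interaction could not be fitted with only the groups compared.

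Directions turned for values near 0. With LPS, Gbp5 had -0.00992 with total-count scaling and -0.043 to 0.297 without 1 library, Gbp4 had -0.063 to 0.495 and Gbp7 -0.216 to 0.186 without 1 library, and Gbp7 had 0.071 without libraries 5 and 7. In the interaction without libraries 5 and 7, Gbp4 had 0.108 and Irgm1 0.074, and without 1 library Gbp4 lay at -0.464 to 0.102, Irgm1 at -0.107 to 0.052 and Igtp at -0.052 to 0.169. The cause was not tested.

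Replicate numbers did not pair the samples throughout: over 25 pairs of groups and numbers, correlations of deviations were -0.221 to 0.353, and 6 were over 0.1. In the 9 pairs of KO with WT of the same treatment they were 0.00923 to 0.353, and 3 were over 0.1. Within the LPS groups the replicate number and the run of library numbers are the same. By run of library numbers the correlations over all pairs of groups were -0.0472 to 0.353, and 12 of 25 were over 0.1. Among them were all 4 pairs of WT LPS with WT control, where the run block kept all 9 calls and moved no count of calls by over 1.5 times. The pairs of KO with WT were not all over 0.1. With the number as a replicate block, 0 of the 9 genes were called with LPS, in control or in the interaction, and Irgm1 with LPS had 0.26 (adjusted p = 0.051). The block by number changed no call of the 9 genes. Depth limits the control values of Gbp7 (5 to 14 counts) and Tgtp1. Among the genes of the other lists named in the report, of 27 alternatives the call was lost in 18 for Gvin2 in control, in 1 for Ifi47 in control (limma-voom, adjusted p = 0.053) and, with LPS, in 8 for Il18, 8 for Tax1bp1, 4 for Aim2, 2 for Nlrc5 and 1 for Sqstm1. Tgtp2 lost its interaction call in 11 of 26, and no direction turned. Il18, Usp18, Tgtp2 and Irf9 in control and Pycard kept their calls in all of them. Single libraries ended calls of Il18 (KO LPS replicates 1 and 4, WT LPS replicates 1, 3, 4 and 5), Tax1bp1 (KO LPS replicates 1, 3, 4 and 5, WT LPS replicate 5), Aim2 (KO LPS replicate 4, WT LPS replicate 1), Gvin2 (14 of the 18) and Tgtp2 (8 of the 18).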
